A study of Mus musculus with 18 samples.

Results

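The genes described here are 8 transporters of organic anions in mouse liver, 4 uptake carriers (Slco1a1, Slco1a4, Slco1b2 and Slco2b1) and 4 efflux pumps (Abcc2, Abcc3, Abcc4 and Abcg2). They were chosen by gene name from 32285 genes in the count table, and all 8 were among the 13356 genes that passed the filter on low counts. Liver RNA came from 18 mice in 3 groups of 6 biological replicates. Space pups and Ground pups, aged 10 weeks, descended from germline stem (GS) cells, a culture of spermatogonial stem cells, of DBA/2 origin. Frozen GS cells were stored for 6 months in orbit on the International Space Station (Space) or on Earth (Ground), thawed and transplanted into testes of W mice, whose own germ cells are deficient, and these recipients were mated with C57BL/6 females. BDF1 mice, the F1 cross of C57BL/6 and DBA/2, served as wild-type controls, and their age was not given. All 18 mice carry the strain label B6D2F1 and the genotype label wild-type. The GS cell line carries an EGFP transgene, and which recipient sired which pup was not given, so pups of a group may share a father.

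The libraries held 15407450 to 20562351 counts, and levels are given as counts per 1000000 (CPM) of the library size scaled by TMM, the trimmed mean of M values. A count of 0 allows a level of up to 0.134 to 0.234 CPM, depending on the library, for counting error only. Replicates 1 to 3 of every group had 1822 to 2482 counts in 4 Y-linked genes and 0 to 187 counts of Xist, and replicates 4 to 6 had 0 to 26 and 12218 to 21557. The labels gave no sex. The paper describes both male and female pups in each group for the liver RNA, without giving their replicate numbers in its text. Comparisons between groups were therefore made within replicates 1 to 3 (Xist-low) and within replicates 4 to 6 (Xist-high). Space replicate 4 and Ground replicates 5 and 6 stood apart, with Serpina6, the corticosteroid-binding globulin made by hepatocytes, at 30939 to 45256 CPM against 117 to 1003 CPM in the other 15 libraries, and they are called Serpina6-high libraries below. The 10 most abundant genes took 29.7% to 39.5% of the counts in pup replicates 4 to 6 and 17.2% to 19.4% in BDF1 replicates 4 to 6, and Alb, serum albumin, alone took 17.6% to 24.1% and 6.72% to 8.03%. All 6 hepatocyte markers in the table were detected in every library, and a list of 5 kidney tubule markers summed to 0 to 0.328 CPM. A list of 5 markers of haploid germ cells summed to 46.3 CPM in Space replicate 6, 4.75 CPM in BDF1 replicate 3 and at most 0.645 CPM elsewhere.

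The liver clears bile acids, conjugated bilirubin, steroid sulfates and many drugs from the blood. Organic anion transporting polypeptides, the products of Slco genes, bring such anions into the hepatocyte across the basolateral (sinusoidal) membrane. ATP-driven pumps then move them or their conjugates out. Abcc2 (MRP2) and Abcg2 (BCRP) sit in the canalicular membrane and export into bile, and Abcc3 (MRP3) and Abcc4 (MRP4) sit in the basolateral membrane and return conjugates to the blood. Slco1a1 and Abcg2 are known to be higher in male mouse liver and Slco1a4 in female liver, a pattern governed by growth hormone and sex steroids.

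In GENCODE M21 (GRCm38, mm10), Slco1b2 (chr6:141629518-141686646, plus strand), Slco1a4 (chr6:141805440-141856199, minus strand) and Slco1a1 (chr6:141907282-141946962, minus strand) are close neighbours on chromosome 6, and Abcg2 (chr6:58584523-58695676, plus strand) lies elsewhere on it. Slco2b1 (chr7:99657804-99711340, minus strand), Abcc2 (chr19:43782192-43840740, plus strand), Abcc3 (chr11:94343295-94392997, minus strand) and Abcc4 (chr14:118482692-118706219, minus strand) are each on another chromosome. The upstream 250 bases of 4 of the genes are shown because Slco1a1 and Slco1a4, close paralogs in the same cluster, differed in opposite directions between the replicate sets, Slco1b2 is their neighbour, and Abcc2 was the efflux pump that differed between Space pups and BDF1 mice. They end at the base before the RefSeq start site and are written 5′ to 3′ on the gene's strand, from GRCm38.p6, at chr6:141946963-141947212 (Slco1a1), chr6:141856221-141856470 (Slco1a4), chr6:141629268-141629517 (Slco1b2) and chr19:43782058-43782307 (Abcc2).
Slco1a1: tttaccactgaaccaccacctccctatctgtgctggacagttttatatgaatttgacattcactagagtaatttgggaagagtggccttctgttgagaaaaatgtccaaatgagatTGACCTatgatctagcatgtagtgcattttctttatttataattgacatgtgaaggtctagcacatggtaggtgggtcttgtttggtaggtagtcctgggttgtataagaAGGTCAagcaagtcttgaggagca
Slco1a4: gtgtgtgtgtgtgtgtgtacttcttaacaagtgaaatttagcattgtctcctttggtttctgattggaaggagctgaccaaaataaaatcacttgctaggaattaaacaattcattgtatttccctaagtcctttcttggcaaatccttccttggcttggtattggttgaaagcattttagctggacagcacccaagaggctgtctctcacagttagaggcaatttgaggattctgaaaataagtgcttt
Slco1b2: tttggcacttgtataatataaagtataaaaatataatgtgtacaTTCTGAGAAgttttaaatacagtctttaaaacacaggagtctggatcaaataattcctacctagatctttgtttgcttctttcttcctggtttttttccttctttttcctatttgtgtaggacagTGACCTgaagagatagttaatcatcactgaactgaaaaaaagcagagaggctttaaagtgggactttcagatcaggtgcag
Abcc2: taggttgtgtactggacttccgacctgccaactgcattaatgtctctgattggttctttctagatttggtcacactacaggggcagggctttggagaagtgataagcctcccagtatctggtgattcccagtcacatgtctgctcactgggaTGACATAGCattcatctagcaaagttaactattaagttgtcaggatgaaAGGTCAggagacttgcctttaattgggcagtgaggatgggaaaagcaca
Capitals mark matches on either strand to 3 motifs: TTCNNNGAA, the palindrome bound by STAT5; AGGTCA, the hexamer read by nuclear receptors; and TGACNNNGC, the core of the antioxidant response element read by NRF2. No matches overlapped in these windows. Slco1a1 held AGGTCA at 134 and 24 bases before the start, Slco1a4 held none of the 3 motifs, and Slco1b2 held TTCNNNGAA at 206 and AGGTCA at 81 bases before the start. Abcc2 held TGACNNNGC at 98 and AGGTCA at 49 bases before the start. Among 32851 RefSeq promoter windows of the same length, 7.02% held TTCNNNGAA, 14.02% AGGTCA and 10.2% TGACNNNGC. The RefSeq start of Slco1a4 lies slightly upstream of the GENCODE model, whereas the first bases after the other 3 starts are part of a GENCODE transcript of the gene. The RefSeq start of Abcc2 lies inside the GENCODE gene, which begins at chr19:43782192. Both matches in the Abcc2 window therefore lie within the GENCODE gene and not upstream of it.

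Levels of different genes were compared as CPM per kilobase of exon, with exon lengths from GENCODE M21. In replicates 1 to 3 the order by median was Slco1b2 (136), Slco1a1 (80.4), Abcc2 (38.9), Abcc3 (35.2), Slco2b1 (26.1), Abcg2 (12.05), Slco1a4 (2.41) and Abcc4 (0.335). The ranges of Abcc2, at 37.6 to 45.1, and Abcc3, at 26.6 to 52.1, overlapped, as did those of Abcc3 and Slco2b1, the latter at 19.7 to 30.3, whereas the other neighbours in the order did not overlap. In replicates 4 to 6 Slco1b2 (149) again had the highest median, followed by Abcc2 (43.7), Abcc3 (39.9), Slco2b1 (30.7), Slco1a1 (20.7), Slco1a4 (15.02), Abcg2 (3.44) and Abcc4 (0.398). There, ranges of neighbours overlapped except those of Slco1b2 with Abcc2 and of Abcg2 with Abcc4. Abcc4 was close to the lower limit of reliable counting, with 20 to 110 reads per library. Fewer hepatocytes and less RNA per hepatocyte cannot be told apart in such bulk tissue.

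**Figure D1:**
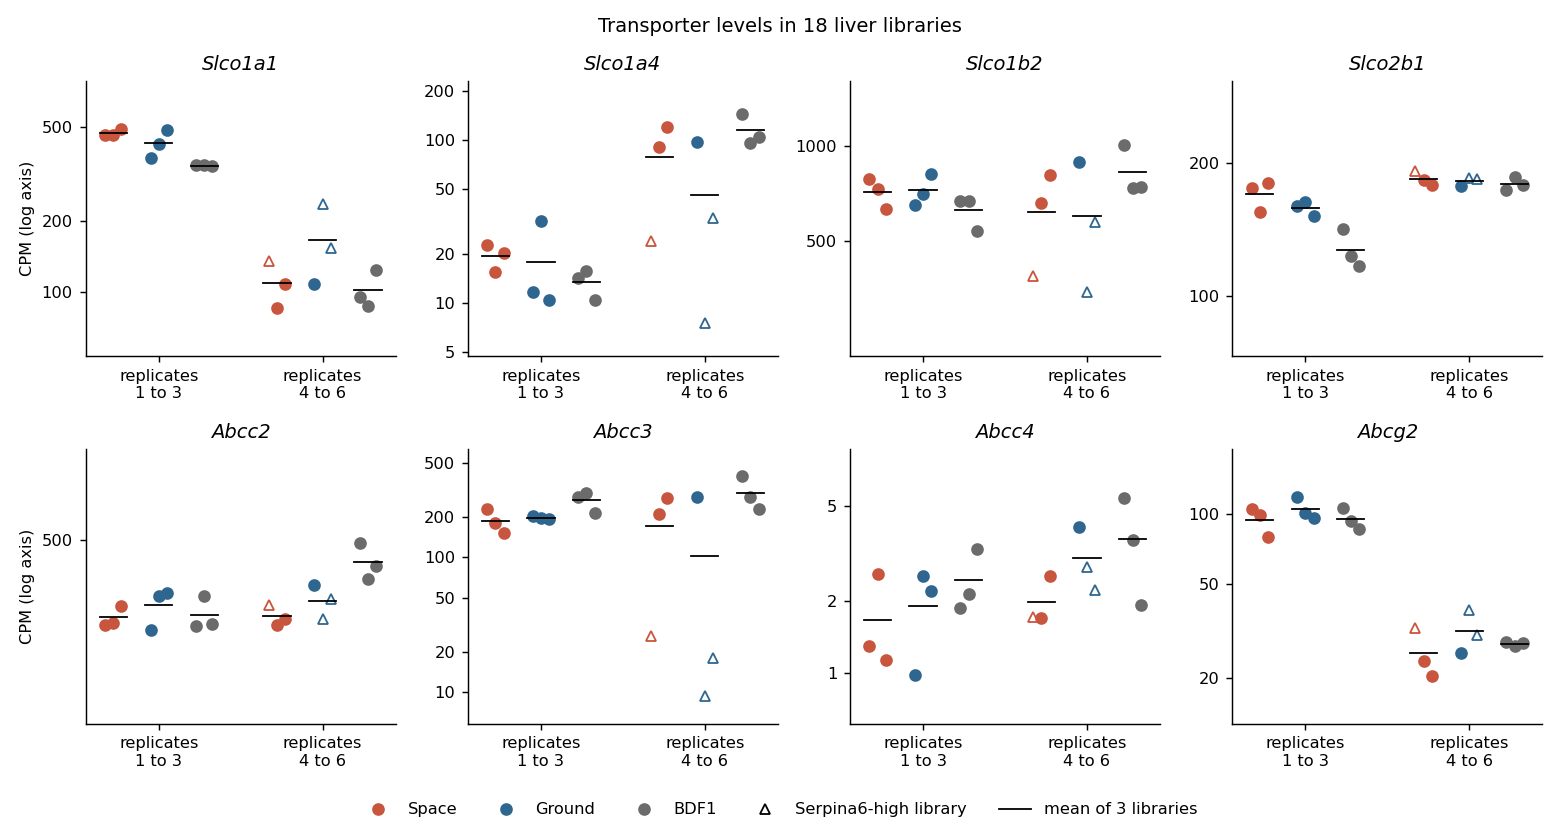
Levels of the 8 transporters (CPM, log axis) in the 18 liver libraries, by group and replicate set. Points are libraries, triangles the 3 Serpina6-high libraries and lines the means of 3 libraries. Slco1a1 and Abcg2 were lower in replicates 4 to 6 in all 3 groups, and the 3 triangles of Abcc3 lay at 9.35 to 26.1 CPM, below the other 15 libraries at 151 to 396 CPM.

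Slco1a1 encodes an uptake carrier for bile acids and steroid conjugates (Oatp1a1). In replicates 1 to 3 it was measured at 463, 463 and 488 CPM in Space pups, at 369.5, 424 and 487 CPM in Ground pups and at 344, 344 and 342 CPM in BDF1 mice. Every pup library lay above the 3 controls. The share of all genes whose libraries were separated in this way was not counted, here or for the genes below. Replicates 4 to 6 had 135, 86.3 and 108 CPM in Space pups, 109, 237 and 154 CPM in Ground pups and 95.8, 87.4 and 124 CPM in BDF1 mice. Here the groups overlapped, and the highest value belonged to Ground replicate 5, a Serpina6-high library.

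Slco1a4 encodes the related carrier Oatp1a4, which also transports cardiac glycosides. In replicates 1 to 3 it was low in every group, at 22.6, 15.5 and 20.2 CPM in Space pups, 11.6, 31.8 and 10.4 CPM in Ground pups and 14.2, 15.8 and 10.5 CPM in BDF1 mice. Its levels in replicates 4 to 6 were 144, 96.3 and 105 CPM in BDF1 mice, 24.2, 90.7 and 120.4 CPM in Space pups and 98.04, 7.57 and 33.1 CPM in Ground pups. The 3 low pup values belonged to the 3 Serpina6-high libraries, and the other 3 pup libraries lay between 90.7 and 120.4 CPM, overlapping the controls. Per kilobase, Slco1a1 exceeded Slco1a4 by 16.2 to 57.1 times in the 9 libraries of replicates 1 to 3. The ratio in replicates 4 to 6 was 0.807 to 1.43 in BDF1 mice, and it was 6.79 in Space replicate 4, 38.1 in Ground replicate 5 and 5.66 in Ground replicate 6 against 1.09 to 1.35 in the other 3 pup libraries.

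Slco1b2 encodes the main liver-specific Oatp of the mouse, a carrier of conjugated bilirubin and statins. In replicates 1 to 3 its mean was 716 ± 77.1 CPM for Space, 723 ± 83.4 CPM for Ground and 624.7 ± 75.2 CPM for BDF1 (SD, n = 3 each). Its level in replicates 4 to 6 was 385, 657 and 810.2 CPM in Space pups, 888, 343 and 573 CPM in Ground pups and 1011, 735 and 741 CPM in BDF1 mice. The 3 lowest of these 9 values again belonged to the Serpina6-high libraries.

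Slco2b1 encodes a carrier of sulfated steroids that is also expressed outside the liver (Oatp2b1). It was at 176, 155 and 180.3 CPM in Space pups, 160.3, 163 and 152 CPM in Ground pups and 142, 124 and 117 CPM in BDF1 mice in replicates 1 to 3, where all 6 pup libraries lay above the 3 controls. It varied least of the 8 genes in replicates 4 to 6, from 174 to 192 CPM over 9 libraries, and the groups overlapped.

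Among the efflux pumps, Abcc2, the canalicular exporter of conjugated bilirubin, was at 363, 328 and 338 CPM in Space pups, 399.6, 338 and 373 CPM in Ground pups and 493.3, 412 and 439.9 CPM in BDF1 mice in replicates 4 to 6. All 6 pup libraries lay below the 3 controls there, whereas the groups overlapped between 320.5 and 385 CPM in replicates 1 to 3. Abcg2, an exporter of sulfate conjugates and porphyrins, was at 79.5 to 118 CPM in the 9 libraries of replicates 1 to 3 and at 20.3 to 38.8 CPM in those of replicates 4 to 6. The groups overlapped in both sets, and the 2 sets did not overlap in any group.

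Abcc3, the basolateral exporter of glucuronides, was at 229, 180.2 and 151 CPM in Space pups, 201, 197 and 191 CPM in Ground pups and 280.3, 297 and 213 CPM in BDF1 mice in replicates 1 to 3. Ground pups lay below all 3 controls in this set and Space pups overlapped them. The levels in replicates 4 to 6 were 26.1, 209 and 276 CPM in Space pups, 278, 9.35 and 17.9 CPM in Ground pups and 396, 279 and 227 CPM in BDF1 mice. It spanned 42.4-fold over these 9 libraries, the widest range of the 8 genes. Abcc4, a basolateral exporter of bile acids and cyclic nucleotides, was at 0.975 to 5.42 CPM over all 18 libraries, and its groups overlapped in both sets.

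The question of the first comparison was whether livers of Space pups differed from those of Ground pups. None of the 8 transporters was called between them, which does not show that their levels were equal. In replicates 1 to 3 the log2 changes of Space against Ground ranged from -0.19 to 0.14 with adjusted p of 0.76 to 0.993 (edgeR quasi-likelihood test, Benjamini-Hochberg over 13356 genes). They ranged, in replicates 4 to 6, from -0.60 to 0.76 with adjusted p of 0.257 to 0.973. The share of all genes called was 0.00749% in replicates 1 to 3 and 0.0225% in replicates 4 to 6. Standard errors in replicates 4 to 6 were 0.09 for Slco2b1 and 0.11 for Abcc2, but 0.64 for Slco1a4 and 0.86 for Abcc3. Slco1a1 had the smallest adjusted p in replicates 4 to 6, with a log2 change of -0.60 (SE 0.22). Without Ground replicate 4, Abcc3 in replicates 4 to 6 was higher in Space pups by 3.65 (SE 0.67, adjusted p = 0.046), with only Serpina6-high libraries left in the Ground arm, and without the 3 Serpina6-high libraries its log2 change was -0.20 (SE 0.29, adjusted p = 0.795), with Ground replicate 4 alone in that arm and assumed to vary like the other groups.

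Space pups were next compared with wild-type BDF1 mice, and 1 transporter was called in each replicate set. In replicates 1 to 3, Slco2b1 was 1.34-fold higher in Space pups, a log2 change of 0.42 (SE 0.09, adjusted p = 0.019). The background was 4.64% of all genes called. The call was lost when libraries were scaled to total counts, not by TMM (0.29, SE 0.13, adjusted p = 0.238), without the filter on low counts (adjusted p = 0.067), and without Space replicate 1 (0.40, adjusted p = 0.077), Space replicate 3 (0.38, adjusted p = 0.088), BDF1 replicate 2 (0.40, adjusted p = 0.086) or BDF1 replicate 3 (0.37, adjusted p = 0.092). In replicates 4 to 6, Abcc2 was lower in Space pups, at 0.765 of the control level, a log2 change of -0.39 (SE 0.11, adjusted p = 0.037) against a background of 11.9% of genes called. The call was lost without the filter (adjusted p = 0.068), in the 9 libraries of the set alone (adjusted p = 0.119) and without any of 7 libraries, Space replicates 2, 4, 5 and 6 and BDF1 replicates 4, 5 and 6, where log2 changes were -0.45 to -0.31 with adjusted p of 0.051 to 0.153. With total counts it was -0.79, while the median over all genes was -0.39 on that scale. The other 7 transporters were not called in either set, and their log2 changes ranged from -0.55 to 0.52 in replicates 1 to 3 and from -0.87 to 0.10 in replicates 4 to 6. Among them Slco1a1 in replicates 1 to 3, whose libraries did not overlap, had a log2 change of 0.46 (SE 0.22, adjusted p = 0.269). It was called in the 9 libraries of the set alone (adjusted p = 0.031), and its log2 change was 0.45 without the 3 Serpina6-high libraries. It was called in 0 of 18 fits with 1 library left out (adjusted p of 0.14 to 0.435). In other settings its adjusted p reached 0.383.

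In the comparison of Ground pups with BDF1 mice none of the 8 genes was called in replicates 1 to 3, where 1.92% of all genes were, and Slco2b1 had the smallest adjusted p (log2 change 0.31, SE 0.09, adjusted p = 0.0995; by DESeq2 0.32, adjusted p = 0.0068). In replicates 4 to 6, Slco1a1 was 1.63-fold higher in Ground pups, a log2 change of 0.70 (SE 0.22, adjusted p = 0.042) against a background of 15.2%. The size of this difference depended on the libraries used. It was 0.36 (adjusted p = 0.244) without Ground replicate 5 but 0.76 without Ground replicate 6, which is also Serpina6-high. Without all 3 Serpina6-high libraries it was 0.10, where Ground replicate 4 alone was left and was assumed to vary like the other groups. It was 0.20 (adjusted p = 0.385) with total counts, and the call was also lost in the 9 libraries of the set alone (adjusted p = 0.143) and without Space replicates 1, 2 or 3, Ground replicate 6 or BDF1 replicates 2, 4 or 5 (adjusted p of 0.053 to 0.14). Abcc3 (-1.56, SE 0.88, adjusted p = 0.246), Slco1a4 (-1.31, SE 0.65, adjusted p = 0.184) and Slco1b2 (-0.46, SE 0.28, adjusted p = 0.291) were not called in replicates 4 to 6. Without Ground replicate 4 all 3 were called, at -4.47 (adjusted p = 0.00078), -2.51 (adjusted p = 0.015) and -0.86 (adjusted p = 0.039), and without the Serpina6-high libraries Abcc3 was at -0.11 (adjusted p = 0.857) and Slco1a4 at -0.23 (adjusted p = 0.805). Scaling to total counts, not by TMM, put the median of all genes at -0.39 for Space pups and -0.46 for Ground pups against BDF1 mice in replicates 4 to 6. Slco2b1 then turned to -0.37 (adjusted p = 0.036) and -0.45 (adjusted p = 0.010), so its position against the controls in that set is relative to the scale. Both comparisons with BDF1 mice used the same control libraries and are not independent.

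**Figure D2:**
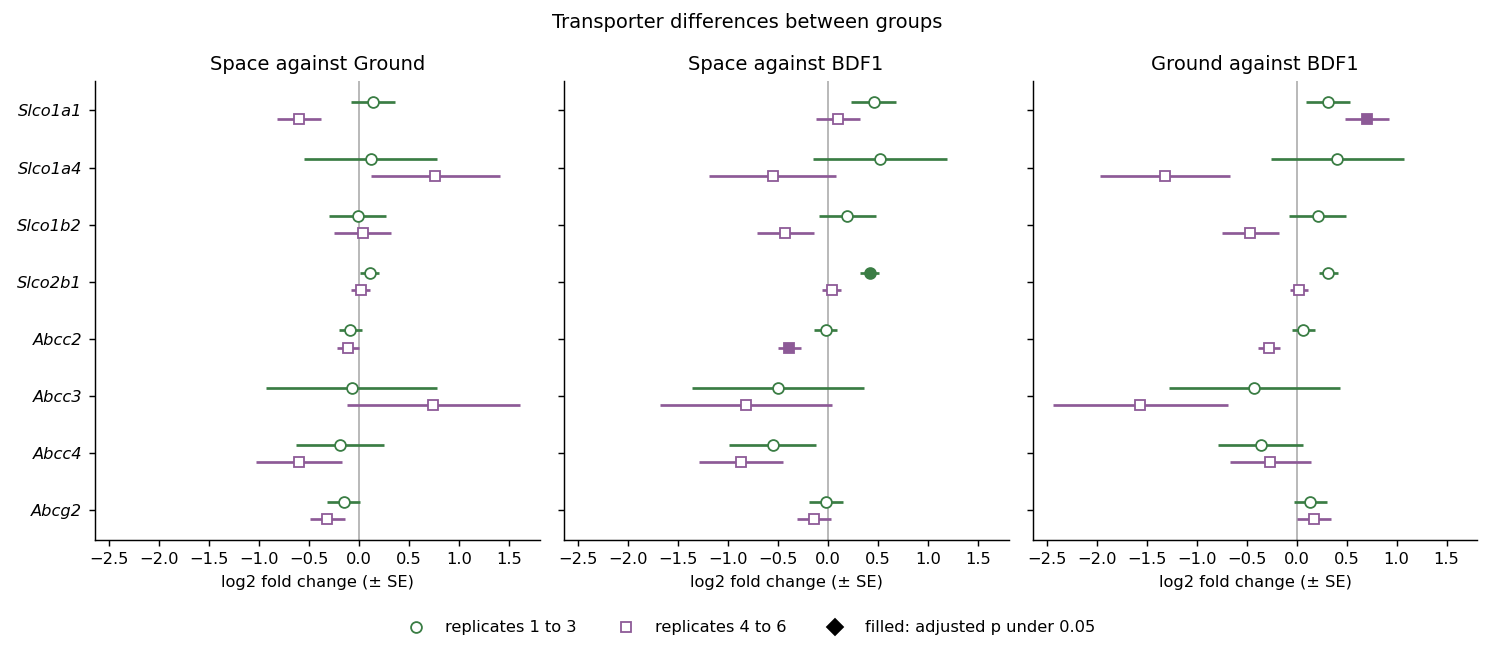
Log2 fold changes (± SE) of the 8 transporters for the 3 group comparisons, within replicates 1 to 3 (circles) and 4 to 6 (squares), on a common axis. Filled symbols had an adjusted p under 0.05. These were Slco2b1 (0.42) and Abcc2 (-0.39) for Space against BDF1 and Slco1a1 (0.70) for Ground against BDF1.

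The difference between the replicate sets in each group contrast was tested directly. No transporter was called in any of the 3 interaction contrasts, with adjusted p of 0.606 to 0.989 for Space against Ground, 0.13 to 0.92 for Space against BDF1 and 0.271 to 0.963 for Ground against BDF1. Shares of all genes called were 0%, 3.19% and 2.74%. For Space against Ground that was 0 genes by edgeR, 30 by DESeq2 and 1038 at an unadjusted p under 0.05. By DESeq2 Slco2b1 was called for Space against BDF1 (-0.38, SE 0.12, adjusted p = 0.028). By edgeR the calls within a single set are thus not shown to be specific to it. Without Ground replicate 4 the Abcc3 interaction for Ground against BDF1 was -4.04 (SE 0.82, adjusted p = 0.011). Over all replicates, with the set as a term, none of the 8 genes was called, while 0%, 10.0% and 11.1% of genes were called for Space against Ground, Space against BDF1 and Ground against BDF1. The first was again 0 genes by edgeR, against 130 by DESeq2 and 1790 at an unadjusted p under 0.05. The smallest adjusted p over all replicates belonged to Slco1a1 in Ground pups against BDF1 mice (log2 change 0.52, SE 0.17, adjusted p = 0.062) and to Slco2b1 in Space pups against BDF1 mice (0.23, SE 0.08, adjusted p = 0.078), and both were called by DESeq2 (adjusted p = 0.027 and 0.033). Slco1a1 was also called by edgeR without Space replicate 5 (adjusted p = 0.049), Ground replicate 1 (adjusted p = 0.043) or Ground replicate 4 (adjusted p = 0.039).

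Slco1a1, Abcg2 and Slco1a4 differed more between the replicate sets than between groups within a set. For Abcc2, Abcc3, Abcc4 and Slco1b2 the largest log2 change was between groups. Slco1a1 and Abcg2 were lower in replicates 4 to 6 than in replicates 1 to 3 in all 3 groups, with no overlap between the sets. For Slco1a1 the log2 change was -1.75 (SE 0.23, adjusted p = 7.6e-05) in BDF1 mice, -1.36 (SE 0.22, adjusted p = 0.00047) in Ground pups and -2.10 (SE 0.23, adjusted p = 8.8e-06) in Space pups. For Abcg2 it was -1.77 (SE 0.17, adjusted p = 3.8e-06), -1.73 (SE 0.17, adjusted p = 3.8e-06) and -1.89 (SE 0.18, adjusted p = 1.6e-06). These 6 calls held under every alternative setting that applied to them and without each of the 18 libraries in turn. The background was 14.6% of genes called in BDF1 mice, 18.3% in Ground pups and 21.9% in Space pups, and 5, 2 and 3 of the 8 transporters were called there.

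Slco1a4 was higher in replicates 4 to 6 of BDF1 mice, 8.54-fold, with a log2 change of 3.09 (SE 0.70, adjusted p = 0.0071), and this call held under every such setting. In Space pups it was 2.02 (SE 0.67, adjusted p = 0.041). That call was lost with total counts (1.77, adjusted p = 0.066) and without 10 of the 18 libraries, namely Space replicates 1, 2, 3, 5 and 6 and BDF1 replicates 1, 2, 3, 5 and 6, with adjusted p of 0.0502 to 0.132. In Ground pups the log2 change was 1.37 (SE 0.66, adjusted p = 0.171), and it was 0.18 (adjusted p = 0.874) without Ground replicate 4, 1.87 (adjusted p = 0.034) without Ground replicate 5 and 2.47 (SE 0.41, adjusted p = 0.0012) without the 3 Serpina6-high libraries. In the last fit Ground replicate 4 was the only Ground library of replicates 4 to 6 and was assumed to vary like the other groups. Slco2b1 (0.49, SE 0.09, adjusted p = 0.0022) and Abcc2 (0.38, SE 0.11, adjusted p = 0.034) were higher in replicates 4 to 6 of BDF1 mice. The Slco2b1 call held under every such setting. The Abcc2 call was lost with total counts (adjusted p = 0.16), without the filter (adjusted p = 0.092) and without Space replicate 2 or BDF1 replicates 1, 3, 4, 5 or 6 (adjusted p of 0.0505 to 0.156). In pups, the set log2 changes were 0.11 (Space) and 0.20 (Ground) for Slco2b1 and 0.01 and 0.03 for Abcc2, none of them called. On total counts, which put the median of all genes between the sets in Ground pups at -0.43, Abcc2 there turned to -0.38 (SE 0.15, adjusted p = 0.0496). Slco1b2, Abcc3 and Abcc4 were not called between the sets in any group, except that without Ground replicate 4 Abcc3 in Ground pups was at -3.85 (adjusted p = 0.0009).

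**Figure D3:**
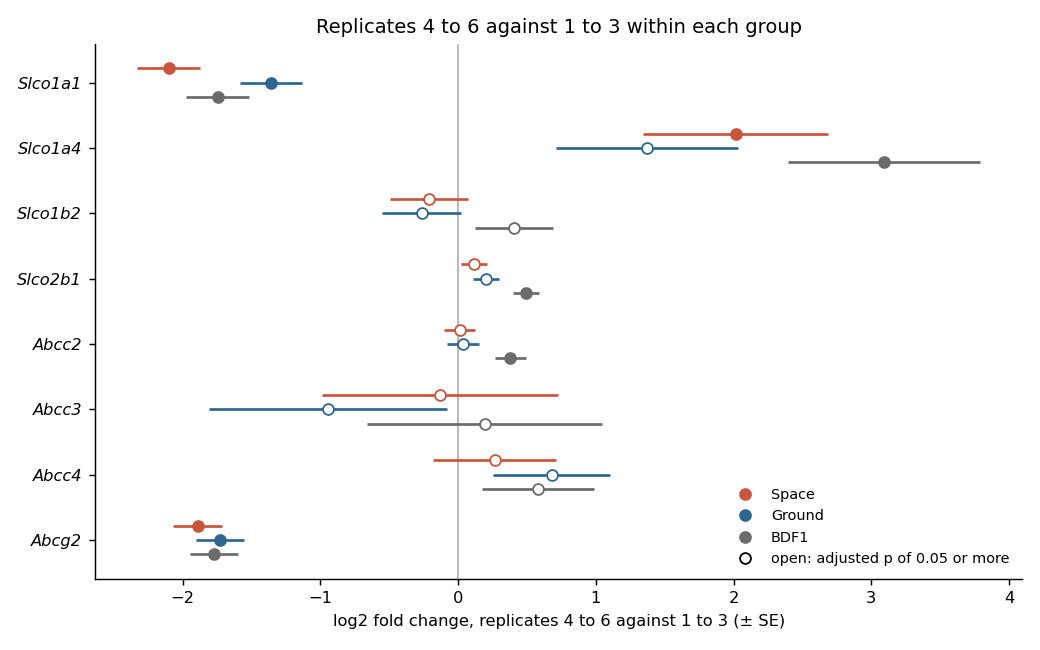
Log2 fold changes (± SE) of replicates 4 to 6 against 1 to 3 in each group. Filled symbols had an adjusted p under 0.05. Slco1a1 lay between -2.10 and -1.36 and Abcg2 between -1.89 and -1.73 in the 3 groups, and Slco1a4 between 1.37 and 3.09.

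The 3 Serpina6-high pup libraries gave the widest spread of transporter levels. Beside their low Abcc3, Slco1a4 and Slco1b2, Slco1a1 was at 135 to 237 CPM and Abcg2 at 30.4 to 38.8 CPM in them, against 86.3 to 124 CPM and 20.3 to 28.5 CPM in the other 6 libraries of replicates 4 to 6, while Abcc2 and Abcc4 overlapped those libraries. The bile acid carriers Slc10a1 (Ntcp), at 231 to 624.8 CPM, and Abcb11 (the bile salt export pump), at 556 to 601 CPM, were below the 716 to 939 CPM and 758 to 969 CPM of those 6 libraries. Slc22a7, an organic anion uptake carrier (Oat2), was above them, at 66.4 to 77.1 CPM against 16.4 to 53.1 CPM, and Abcc6, a basolateral efflux pump, was below, at 90.1 to 148 CPM against 161 to 238 CPM. The hormone receptors Ghr, at 2323 to 4094 CPM, and Prlr, at 2809 to 4024 CPM, were above the 424 to 458 CPM and 353 to 473 CPM of the same 6 libraries. These libraries were recognised from the data, so their values are given as a description without a test. Markers of dividing cells summed to 17.7 to 51.5 CPM in them and to 2.77 to 30.3 CPM in the other 6 libraries. These 3 animals were labelled 10 weeks old like the other pups, and the age of the BDF1 mice was not given. Whether physiological state or handling differed for the 3 animals is not given in the labels, and the part of these measures in the transporter values was not tested.

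**Figure D4:**
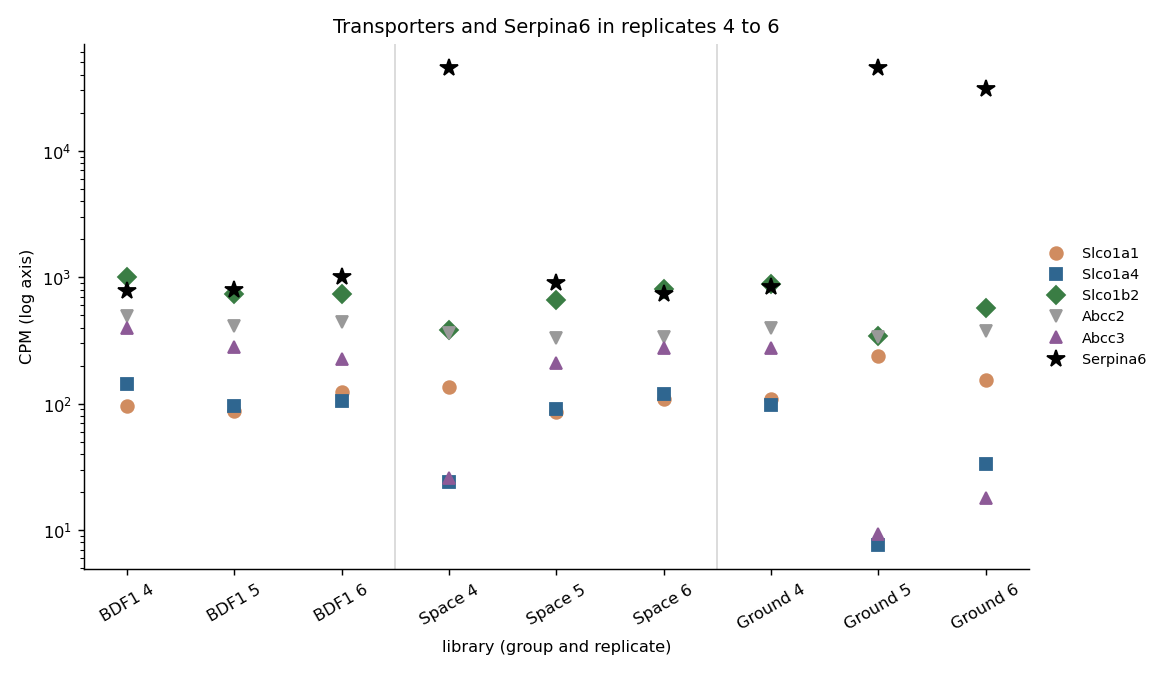
Levels (CPM, log axis) of 5 transporters and of Serpina6 in the 9 libraries of replicates 4 to 6. In Space replicate 4 and Ground replicates 5 and 6, Serpina6 (stars) was at 30939 to 45256 CPM and Abcc3 (upward triangles) at 9.35 to 26.1 CPM, whereas Abcc2 (downward triangles) stayed between 338 and 373 CPM.

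Over the 18 libraries, with log2 CPM centred within each replicate set, Abcc3 had a Pearson's r of 0.88 with Slco1a4, 0.85 with Slco1b2 and -0.83 with Slco1a1, and Slco1a4 and Slco1b2 had 0.86. Slco2b1 had its strongest r, -0.54, with Abcc4. These are descriptions across libraries that share the 3 Serpina6-high animals. The genes whose profile was most like each transporter, by the same measure among genes averaging 1 CPM or more, were Ddah1 (0.98), Ugdh (0.97) and Sgms2 (0.95) for Abcc3, Ethe1 (0.94), Lipc (0.94) and Maob (0.93) for Slco1a4, and Dhtkd1 (0.94), C2cd2 (0.93) and Abca8a (0.92) for Slco1b2. For Slco1a1 they were Tbc1d16 (0.91), Stbd1 (0.88) and Tead2 (0.86), and for Slco2b1 Thrsp (0.94), Lrtm1 (0.91) and Per2 (0.88). For Abcc2 they were N4bp2 (0.87), Marf1 (0.84) and Fgd4 (0.82), for Abcg2 Gulo (0.84), Arid3a (0.82) and Mical3 (0.82), and for Abcc4 Tnrc6b (0.84), Bid (0.80) and Tbc1d15 (0.78).

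Other transporters were counted in the same comparisons. Of 13 further uptake carriers, 7 were tested. Between groups within a set, only genes in Ground pups against BDF1 mice in replicates 4 to 6 were called, where Slc16a1, a monocarboxylate carrier, was higher (0.75, SE 0.20, adjusted p = 0.019) and Slc22a18 lower (-0.40, SE 0.13, adjusted p = 0.04), that is 2 of 7 against 15.2% of all genes called. Of 14 further efflux transporters, 13 were tested and only Abcg8, which with Abcg5 exports cholesterol into bile, was called between groups within a set, lower in Ground pups than in BDF1 mice in replicates 1 to 3 (-0.82, SE 0.18, adjusted p = 0.027), where 1.92% of all genes were called. The medians of the efflux list in the 6 group comparisons within sets lay between -0.24 and 0.10 and those of the uptake list between 0.01 and 0.18, beside medians of -0.01 to 0.01 over all genes. Each of these 3 calls was lost without 3 to 9 single libraries, and Slc16a1 and Slc22a18 were also lost without the Serpina6-high libraries.

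All 16 listed regulators of transporter genes were tested, with medians between -0.16 and 0.35 in the 6 comparisons. For Space against Ground, 1 was called, in replicates 4 to 6, where 0.0225% of all genes were. Against BDF1 mice, 1 was higher and 1 lower in replicates 1 to 3 of Space pups, where 4.64% of all genes were called. In replicates 4 to 6 of Space pups 2 were higher, beside 11.9%. Ground pups had 0 called in replicates 1 to 3 and, beside 15.2%, 4 higher and 1 lower in replicates 4 to 6. The 4 largest of these by absolute log2 change are named. Nr1i2, the xenobiotic receptor PXR, was higher in Space pups in both sets, relative to BDF1 mice (0.78, SE 0.14, adjusted p = 0.0069 in replicates 1 to 3, and 0.77, SE 0.14, adjusted p = 0.0039 in replicates 4 to 6), the second not with total counts. Nr1i3, the related receptor CAR, was higher in replicates 4 to 6 of Space pups (1.04, SE 0.29, adjusted p = 0.028) and Ground pups (1.22, SE 0.29, adjusted p = 0.0099) than of BDF1 mice. Stat5a, a transcription factor downstream of growth hormone and prolactin, was lower in Space pups in replicates 1 to 3 (-0.95, SE 0.15, adjusted p = 0.0024). Nr0b2, the bile acid-induced repressor SHP, was lower in Ground pups than in BDF1 mice in replicates 4 to 6 (-2.55, SE 0.29, adjusted p = 8.1e-05) and higher in Space than in Ground pups (1.87, SE 0.28, adjusted p = 0.028). The call of Space against Ground was lost with a term for replicate number, in the 9 libraries of the set alone and without 7 single libraries. Prlr (2.75, SE 0.77, adjusted p = 0.023) and Ghr (2.39, SE 0.70, adjusted p = 0.031) were higher in Ground pups than in BDF1 mice in replicates 4 to 6, and both calls were lost without the Serpina6-high libraries. Of the 9 calls named here, 3 held in every setting and without every single library, those of Stat5a, of Nr1i2 in replicates 1 to 3 and of Nr0b2 in Ground pups against BDF1 mice. Nr1i2 in replicates 4 to 6 held without every single library, and the other 5 were lost without 1 to 7 of them.

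Genes that these receptors control were also counted. Of 7 targets of CAR and PXR, whose medians ranged from -1.05 to 0.50, 4 were lower in Ground pups than in BDF1 mice in replicates 4 to 6, the drug-metabolising Cyp2c55 (-2.14, SE 0.55, adjusted p = 0.017), Gsta2 (-1.68, SE 0.55, adjusted p = 0.0498), Cyp3a11 (-1.48, SE 0.37, adjusted p = 0.013) and Por, the electron donor of cytochromes P450 (-0.46, SE 0.15, adjusted p = 0.048), where 15.2% of all genes were called. Cyp3a11 was also lower in Space pups in that set (-1.20, SE 0.37, adjusted p = 0.044), against 11.9% of all genes called, and 0 of 7 targets were higher. Without the Serpina6-high libraries the Ground calls of Cyp2c55, Gsta2 and Cyp3a11 were lost, and each of these 5 calls was lost without 1 to 13 single libraries. Of 10 targets of NRF2, a regulator known to induce Abcc2, Abcc3 and Abcc4 too, with medians of -0.22 to 0.04, Ces1g was higher in Ground pups in replicates 1 to 3 (0.86, SE 0.20, adjusted p = 0.036) and Srxn1 lower in replicates 4 to 6 (-0.38, SE 0.10, adjusted p = 0.016), against BDF1 mice. Of all genes, 1.92% were called in the first of these comparisons and 15.2% in the second. Neither call held in every setting: Ces1g was lost with total counts and without 6 single libraries, and Srxn1 without the Serpina6-high libraries and without 2 single libraries. Of 6 scaffold and trafficking genes, with medians of -0.10 to 0.05, Slc9a3r1 (-0.68, SE 0.20, adjusted p = 0.033) and Pdzk1 (-0.35, SE 0.09, adjusted p = 0.019), which anchor membrane transporters, were lower in Ground pups than in BDF1 mice in replicates 4 to 6, where 15.2% of all genes were called. Both calls were lost without the Serpina6-high libraries. Of 7 genes of heme and bilirubin handling, Abcc2 and Abcc3 among them, only Abcc2 was called between groups within a set. That was in Space pups against BDF1 mice in replicates 4 to 6, where 11.9% of all genes were called. The medians of this list were -0.39 to 0.05. Between the replicate sets, 7 of 16 regulators were higher and 1 lower in replicates 4 to 6 of Space pups, 8 and 1 of Ground pups and 3 and 1 of BDF1 mice, where 21.9%, 18.3% and 14.6% of all genes were called. Of the 7 further uptake carriers tested, 1 was higher and 0 lower in each group, and of the 13 further efflux transporters 2, 3 and 2 were higher and 1 lower in Space pups, Ground pups and BDF1 mice.

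Markers of other cells were summed in every library. Summed over 6 genes, cholangiocyte markers were at 12.7 to 37.0 CPM and stellate cell markers at 95.5 to 185 CPM over the 18 libraries. Kupffer cell markers were at 109 to 169 CPM in pup replicates 4 to 6 and at 59.8 to 131 CPM in BDF1 replicates 4 to 6, and 4 of 5 erythroid genes and 4 of 5 genes of dividing cells were called higher there in Space pups, and as many of each list in Ground pups, than in BDF1 mice, against 11.9% and 15.2% of all genes called in either direction. The sums of the hepatocyte list were 217484 to 379875 CPM in pup replicates 4 to 6 and 74909 to 96611 CPM in BDF1 replicates 4 to 6, most of it Alb. Sums of 5 endothelial markers were at 46.9 to 105 CPM and of 5 lymphoid markers at 3.18 to 9.35 CPM over all libraries. Pancreatic acinar markers summed to 2.58 to 3.42 CPM in the 3 Serpina6-high libraries and at most 0.134 CPM elsewhere. Lists of genes known to differ between male and female liver were compared between replicates 4 to 6 and replicates 1 to 3. In every group, 9 of 9 tested on the male-higher list were called lower and 12 of 12 on the female-higher list higher. Of all genes, 21.9% in Space pups, 18.3% in Ground pups and 14.6% in BDF1 mice were called there in either direction. The lists were chosen with earlier results of these data known, so their counts are not an independent check. The part of these markers in the transporter values was not tested.

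**Figure D5:**
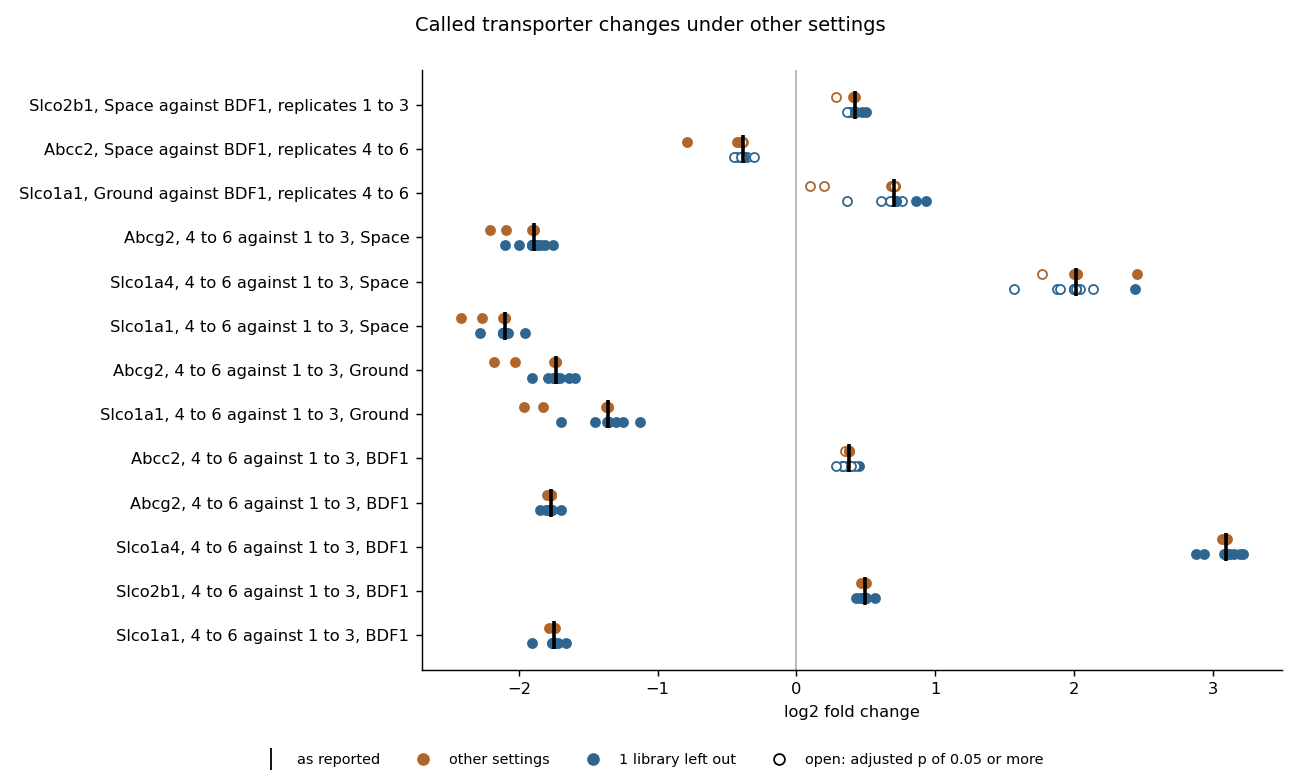
Log2 fold changes of the 13 called transporter differences as reported (bars), under other settings (orange) and with 1 library left out (blue). Open symbols had an adjusted p of 0.05 or more. The set differences of Slco1a1 and Abcg2 stayed filled, whereas the 3 group differences, of Slco2b1, Abcc2 and Slco1a1, had open symbols.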

How the data were processed

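Liver RNA of 18 mice was sequenced (Illumina Stranded mRNA Prep, paired-end reads on a NextSeq 2000). The authors trimmed and aligned the reads to mm10 and deposited raw read counts per gene, and the submitters' processing notes name bcl2fastq 2.20, cutadapt 4.6, HISAT2 2.2.1 and HTSeq 2.0.2. The counting mode and strand setting were not given in the sources used here, so reads shared by overlapping or near-identical genes may have been split or dropped. Of 50-base windows, 1.64% of Slco1a1 and 1.61% of Slco1a4 were shared with transcripts of other genes, and at most 0.663% of the other members.

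Groups and replicate numbers came from the sample titles. The counts were filtered (filterByExpr, 13356 of 32285 genes kept), scaled by TMM and fitted with edgeR 4.0.16 (R 4.3.3, limma 3.58.1) as 1 mean per group and replicate set over 18 libraries. Each of 15 comparisons used the quasi-likelihood F-test, two-sided, with Benjamini-Hochberg adjustment over all 13356 genes and a threshold of 0.05. Standard errors are the log2 change divided by the square root of F. Comparisons over all replicates had group and set as additive terms. Alternatives were DESeq2 1.42.0, its size factors in edgeR, total counts, no filter, a replicate block, each set alone, no set term, each library left out and the 3 Serpina6-high libraries left out. The edgeR and DESeq2 scripts were tested on simulated data.

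All 8 members were described in every comparison. Of the other lists, genes called between groups within a replicate set were named, at most 4 per list and comparison, the largest by absolute log2 change. For each member the 3 genes most alike by Pearson's r of log2 CPM (prior count 2, mean of at least 1 CPM) were named. The members and lists were chosen with earlier results of these data known. Some listed genes and a motif are not reported here. Depth was 15407450 to 20562351 counts, which sets the counting error of Abcc4. No 2 libraries of the same group were near-identical, and libraries of different groups were not compared in this way. All 8 members matched GENCODE M21 by gene identifier, as did 32235 of 32285 genes, and 7 of 8 members had an entry in the RefSeq promoter table (GRCm38.p6). Abcc3 had none.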

Additional observations from a re-analysis of the deposited data

Results flagged for a closer look

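Of 24 sets of 6 libraries (8 transporters in 3 groups), 1 held a library far from the other 5. Slco1a4 in Ground replicate 4 was at 98.04 CPM, while the other 5 Ground libraries lay at 7.57 to 33.1 CPM. The 6 libraries span both replicate sets, and the other 2 Ground libraries of replicates 4 to 6 were Serpina6-high. The test for a distant value is expected to mark 5% of such sets by chance. Of 24 tests of a difference between the replicate sets in a group effect, 0 were called by edgeR.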

How the results depend on the processing

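Of the 13 transporter calls, edgeR with DESeq2 size factors kept 13, DESeq2 kept 13 and added 4, total counts kept 9 among 21 calls, no filter kept 10 and leaving out 1 library kept 9 to 13. All 3 calls between groups were lost under some setting, and no direction of a call turned. The causes were not tested, except that leaving out libraries and the set alone use fewer samples.

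By comparison, counts of genes called that moved by over 1.5 times are given for Space against Ground (S-G), Space against BDF1 (S-B) and Ground against BDF1 (G-B). With DESeq2 they were 68 (S-G), 1002 (S-B) and 619 (G-B) in replicates 1 to 3, 139 (S-G) in replicates 4 to 6, 30, 849 and 782 for the 3 differences between sets and 130 for S-G over all replicates, and 1 member was called in G-B in replicates 1 to 3, in the S-B difference between sets, and in S-B and G-B over all replicates. Without the filter, S-G had 7 genes in replicates 1 to 3, 14 in replicates 4 to 6, 8 for the difference between sets and 2 over all replicates, and 0 members were called in S-B in either set. With total counts, 0 genes (S-G) and 137 (G-B) were called in replicates 1 to 3, 4978 (S-B) and 6136 (G-B) in replicates 4 to 6, 1501 for the G-B difference between sets, 5987 between the sets in Ground pups, and 3574 (S-B) and 3642 (G-B) over all replicates. Members called were then 0 in S-B in replicates 1 to 3, 4 in S-B and 3 in G-B in replicates 4 to 6, 2 in the G-B difference between sets and 3 in S-B over all replicates.

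Total counts also moved the split of higher against lower calls, from 380 and 240 to 169 and 256 (S-B, replicates 1 to 3), from 859 and 733 to 337 and 4641 (S-B, replicates 4 to 6), from 1050 and 981 to 402 and 5734 (G-B, replicates 4 to 6), from 1545 and 1384 to 747 and 3629 (between sets in Space pups), from 1281 and 1163 to 606 and 5381 (in Ground pups), from 747 and 591 to 277 and 3297 (S-B, all replicates) and from 726 and 753 to 278 and 3364 (G-B, all replicates).

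Same-numbered samples of different groups had an r of -0.60 to 0.25 between their deviations from the group and set means (median -0.04, 18 pairs, 3 of them over 0.1). Differently numbered samples had -0.33 to 0.50 (median 0.01, 36 pairs). These means hold 3 libraries each and the Serpina6-high libraries are among them, so this check cannot exclude a pairing by replicate number. With a replicate block, 0 genes were called for S-G in either set, 354 (S-B) and 92 (G-B) in replicates 1 to 3, 939 (S-B) in replicates 4 to 6, 230 (S-B) and 145 (G-B) for the differences between sets, and 781 (S-B) and 855 (G-B) over all replicates. The replicate block left 0 members called in S-B in replicates 1 to 3 and 4 to 6 and 0 in G-B in replicates 4 to 6. In the 9 libraries of a set alone, 13 (S-G), 1067 (S-B) and 563 (G-B) genes were called in replicates 1 to 3 and 0, 567 and 865 in replicates 4 to 6, with 2 members in S-B in replicates 1 to 3 and 0 in S-B and G-B in replicates 4 to 6. Without the set term, 490 (S-B) and 471 (G-B) genes were called over all replicates.

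Without the 3 Serpina6-high libraries, 31 (S-G), 1269 (S-B) and 739 (G-B) genes were called in replicates 1 to 3, 1 (S-G) and 1100 (G-B) in replicates 4 to 6 and 803 for the S-B difference between sets, with 2 members in S-B in replicates 1 to 3 and 0 in G-B in replicates 4 to 6. Abcc3 then turned to -0.20 for S-G in replicates 4 to 6, -0.12 and 0.31 for the S-G and G-B differences between sets and 0.51 between the sets in Ground pups.

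Leaving out 1 library gave these ranges of genes called: for S-G 0 to 84 in replicates 1 to 3, 0 to 75 in replicates 4 to 6, 0 to 22 for the difference between sets and 0 to 265 over all replicates. For S-B they were 201 to 781, 642 to 1936, 221 to 612 and 735 to 1567, and for G-B 35 to 387, 1128 to 2403, 132 to 760 and 822 to 1726. Between the sets they were 1866 to 3177 in Space pups and 1074 to 2206 in BDF1 mice. Members called ranged over 0 to 1 for S-G in replicates 4 to 6, S-B in both sets, the G-B difference between sets and G-B over all replicates, and over 0 to 4 for G-B in replicates 4 to 6.

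With CPM on total counts, 15 of 48 mean levels moved by more than 1 SD. Depth limited Abcc4 most, at 20 to 110 reads per library.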
